A study of Mus musculus with 4 samples.

Results

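Conventional dendritic cells were taken from 4 single-cell RNA libraries of mouse gonadal adipose tissue as barcodes with at least 1 UMI (unique molecular identifier, a counted transcript) of Flt3 and of Ptprc, at least 5 of H2-Ab1, at most 1 of Cd79a and of Gpnmb, none of Cd3e, and at least 2 UMIs of either Xcr1 plus Clec9a or Cd209a. These limits found 108 cells among 14982 kept barcodes. A barcode was kept when it had more than 1000 but fewer than 7000 genes and a mitochondrial share below 8%. The Xcr1/Clec9a kind held 67 cells, the Cd209a kind held 40 and 1 cell met both limits. All 4 libraries came from the stromal vascular fraction of 18-month-old male p16-CreERT2/R26-LSL-tdTomato mice that had received tamoxifen, in which Cre from the p16 locus switches on the tdTomato reporter (Tom) for good in cells that express p16 at the time of treatment. By the labels, the tissue was sorted by CD45, the pan-leukocyte surface protein, and by Tom, which gave a Tom+ and a Tom- library on the CD45- side and the same pair on the CD45+ side, 1 library for each gate. The number of animals behind a library was not given in the sources used here, so no difference between libraries has a replicate check. Library values in series below always run in the order CD45- Tom+, then CD45- Tom-, then CD45+ Tom+, and last CD45+ Tom-. Intervals below are exact 95% intervals (Clopper-Pearson for shares, Poisson for levels) that cover counting error only.

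Dendritic cells take up antigen, carry it to lymph nodes and present it to T cells. Conventional dendritic cells depend on the growth factor Flt3 ligand and its receptor Flt3, and they fall into type 1 (cDC1), which needs the transcription factors Irf8 and Batf3 and excels at showing antigen from dead cells to CD8 T cells on class I molecules, and type 2 (cDC2), which is marked by Sirpa and often Irf4 and mainly primes CD4 T cells on class II molecules. Xcr1 is the chemokine receptor and Clec9a the dead-cell receptor of cDC1, and Cd209a is a C-type lectin of cDC2 and of cells derived from monocytes. In fat, both types sit among the stromal cells and macrophages of the vascular fraction.

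The genes of the rule separated the kinds, as the rule itself made them do. In the Xcr1/Clec9a kind, 67 of 67 cells held Xcr1, with a median of 8 UMIs and a highest value of 30. Clec9a was found in 63 of the 67 cells with a median of 3 UMIs. Cd209a was found in none of them, although the rule did not ask for its absence below 2 UMIs. In the Cd209a kind, Cd209a had a median of 9 UMIs with a range from 2 to 34, Xcr1 was found in 0 of 40 cells and Clec9a in 2. Few cells lay near the limits. No Xcr1/Clec9a cell had exactly 2 UMIs of its pair of genes and 2 cells had 3, whereas in the Cd209a kind 3 cells were at 2 UMIs and 4 were at 3. Just outside, 2 cells had 1 UMI of Xcr1 plus Clec9a and 7 had 1 UMI of Cd209a. H2-Ab1, a class II chain, had a median of 190 UMIs and a lowest value of 12 in the members, and Flt3 a median of 4, with 14 members at 1.

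Before the results, the libraries need a word. The deposited tables held between 3429 and 11255 barcodes each, and the kept barcodes had a median of 18587 to 20241 UMIs. Libraries shared between 26 and 4394 barcode sequences, so the barcodes of 38 members occurred in a second library as well. None of the 39 partner barcodes was kept, their median was 633 UMIs and the highest held 2170, and no member was present in both libraries. The members with a shared barcode were deeper, with a median of 29526.5 UMIs against 18378.5 in the others. Leukocytes and other cells were found under both CD45 labels. Among Tom- libraries the one labelled CD45- held 44 members and the one labelled CD45+ held 43, and stromal cells (Pdgfra of at least 2 UMIs and no Ptprc) numbered 1634 and 1770, so CD45- and CD45+ below are labels only.

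Dendritic cells were rare in every library. They made up 0.338% of kept barcodes in the library labelled CD45- Tom+ (14 cells, interval 0.185 to 0.566%), 1.09% in CD45- Tom- (44 cells, 0.793 to 1.46%), 0.353% in CD45+ Tom+ (7 cells, 0.142 to 0.727%) and 0.892% in CD45+ Tom- (43 cells, 0.647 to 1.20%). The intervals of both Tom+ libraries overlapped each other, as did those of both Tom- libraries. The interval of CD45- Tom+ lay below both Tom- intervals, and that of CD45+ Tom+ lay below CD45- Tom- but overlapped CD45+ Tom-. The gate itself acted unequally, because the limit on Cd79a, a B cell gene, took the candidates from 124 to 34 in CD45- Tom+ and from 57 to 11 in CD45+ Tom+, but only from 99 to 76 in CD45- Tom- and from 113 to 87 in CD45+ Tom-. The part of that limit in the shares was not tested. The Xcr1/Clec9a kind made up 62.8% of the 43 cells of a single kind in CD45- Tom- (interval 46.7 to 77.0%) and 72.1% of the 43 in CD45+ Tom- (56.3 to 84.7%). It was 7 of 14 cells in CD45- Tom+ and 2 of 7 in CD45+ Tom+, and these intervals, from 23.0% and from 3.67% upward, overlapped those of the Tom- libraries. Without the members whose barcode occurred in another library, CD45- Tom- kept 7 Xcr1/Clec9a and 11 Cd209a cells, so the Xcr1/Clec9a kind fell from 62.8 to 38.9% there.

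**Figure D1:**
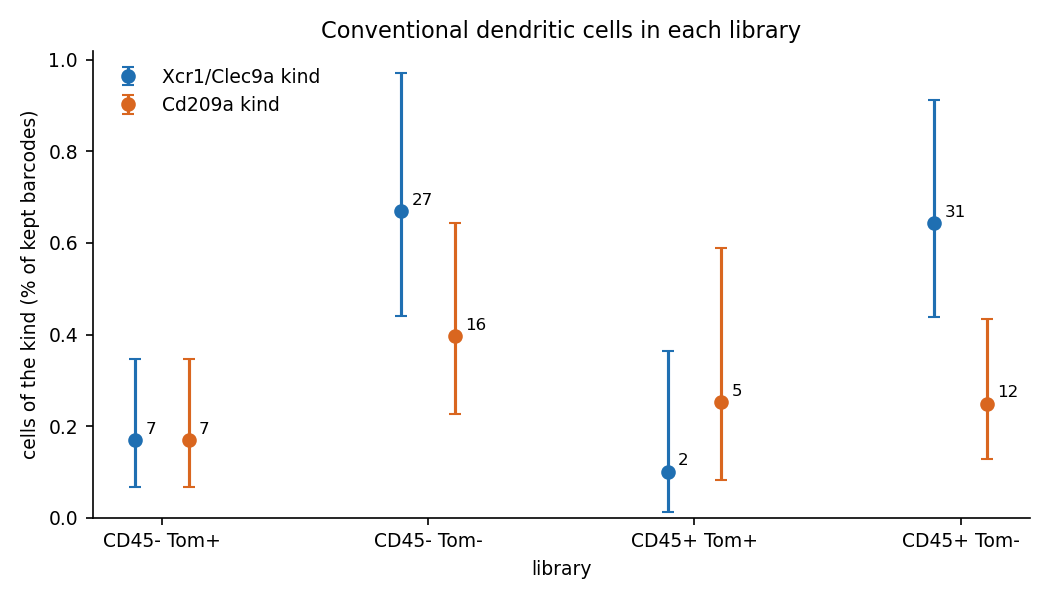
Each point is the share of a library's kept barcodes (y axis, percent) that belonged to the Xcr1/Clec9a kind (blue) or the Cd209a kind (orange), with its exact 95% interval as the bar and the number of cells beside it. The Xcr1/Clec9a kind numbered 27 and 31 cells in the Tom- libraries and 7 and 2 in the Tom+ libraries.

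The kinds were then compared across genes. Since cells of a library are not replicates and the cells had been chosen by their own counts, UMIs were summed per kind in each library and no test was made. Levels are given as CPM, the usual counts scaled to the total UMIs of the kind in that library. The ratio of the Cd209a kind over the Xcr1/Clec9a kind was taken within each library that held at least 10 cells of both kinds, and these were CD45- Tom- (27 and 16 cells) and CD45+ Tom- (31 and 12 cells). The mean of the 2 log2 ratios is given as the ratio of a gene, with 0.5 UMI added on both sides, and a gene was called when it had a mean of at least 20 CPM, the same sign in both libraries and at least a 4-fold ratio. Of 5342 genes, 165 (3.09%) were called higher in the Cd209a kind and 147 (2.75%) higher in the Xcr1/Clec9a kind, and the median ratio of all genes was 0.12. Counts of calls in the lists below stand beside these shares, and a gene can be in more than 1 list. The sums were lopsided for some: over 50% of a gene's UMIs came from a single cell for 4 of the 165 and for 26 of the 147. In the library labelled CD45- Tom+, which took no part in the calls and held 7 cells of each kind, 147 of the 165 genes (89.1%) and 103 of the 147 (70.1%) had the same direction, beside 3332 of all 5342 genes (62.4%). The 0.5 UMI added gave a gene with no UMI in either kind of that library a ratio of 0.68. Such genes counted as the same direction for the 165 and as the opposite for the 147. The Xcr1/Clec9a kind was the deeper, with a median of 25490 UMIs a cell against 17990.

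**Figure D2:**
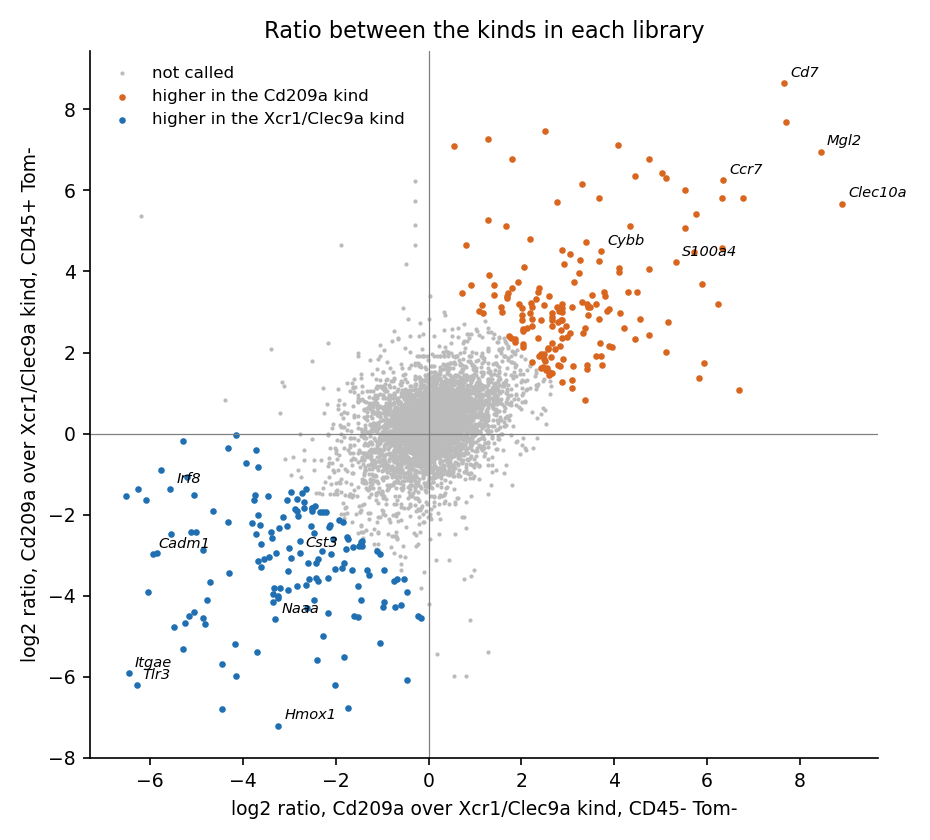
Each point is a gene, placed by its log2 ratio of the Cd209a kind over the Xcr1/Clec9a kind in the library labelled CD45- Tom- (x axis) and in CD45+ Tom- (y axis), with the 165 genes called higher in the Cd209a kind in orange, the 147 called higher in the Xcr1/Clec9a kind in blue and the others in grey. Most called genes lie far from 0 in both libraries, while genes such as Irf8 lie far from it in one and nearer to it in the other.

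Genes known for cDC1 lay in the Xcr1/Clec9a kind in most cases. Of 16 such genes that reached 20 CPM, 15 were called higher there and none in the Cd209a kind, with a median log2 ratio of -4.23, or -3.70 with the 4 genes that had no UMI in the other kind set to their bound. The transcription factor Irf8 (chr8:120736358-120756694, mm10) stood at 1117 CPM in CD45- Tom+, 1302 in CD45- Tom-, 1316 in CD45+ Tom+ and 1426 in CD45+ Tom-. In the Cd209a kind Irf8 was at 0, 25.8, 0 and 553 CPM in the same order. The Xcr1/Clec9a level was thus steady over libraries. The high value of the Cd209a kind in CD45+ Tom- came largely from 1 cell, which held 53.7% of that kind's Irf8 UMIs. That cell held 66 UMIs of Irf8 and 41 of Siglech, a marker of plasmacytoid dendritic cells, and another held 28 and 27. Irf8 was found in 100% of Xcr1/Clec9a cells and 30% of Cd209a cells, beside 19.7% of stromal cells, which should lack it, at median depths of 25490, 17990 and 24755 UMIs. Batf3, the partner factor of Irf8, was at 118, 188, 129 and 169 CPM in the Xcr1/Clec9a kind and at 32.9, 45.1, 90.4 and 14.4 in the Cd209a kind. Id2, an inhibitor of DNA-binding factors that cDC1 need, was higher in the same kind in every library but did not reach 4-fold, with a ratio of -1.81.

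Surface and endosomal genes of cDC1 also differed. Tlr3, the endosomal receptor for double-stranded RNA, was at 108, 126, 108 and 176 CPM in the Xcr1/Clec9a kind. It had no UMI in the Cd209a kind of either Tom- library, so it was at least 26.2-fold higher over both (3 counts as the floor). Itgae, the integrin chain CD103, had no UMI in any Cd209a cell and was at least 24.7-fold higher in the Xcr1/Clec9a kind, where it stood at 169, 142, 0 and 144 CPM. Cxcr3, a receptor for interferon-induced chemokines, was likewise absent from the Cd209a kind and at least 9.21-fold higher. Cadm1, an adhesion protein, was at 118, 298, 733 and 320 CPM against 0, 3.22, 0 and 38.5. Naaa, a lysosomal amidase, was at 1378, 1512, 1466 and 1656 CPM against 354, 152, 145 and 67.3, and the ranges of the kinds did not overlap for it. Wdfy4, a gene that cross-presentation of cell-bound antigen requires, was at 671, 783, 712 and 941 CPM against 214, 290, 108 and 135. Its mean ratio of -2.10 went to -1.97, under 4-fold, without the cells that held other types' UMIs. Rab7b, Ppt1, Btla and Cd24a had ratios of -4.96, -4.19, -2.23 and -2.74.

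**Figure D3:**
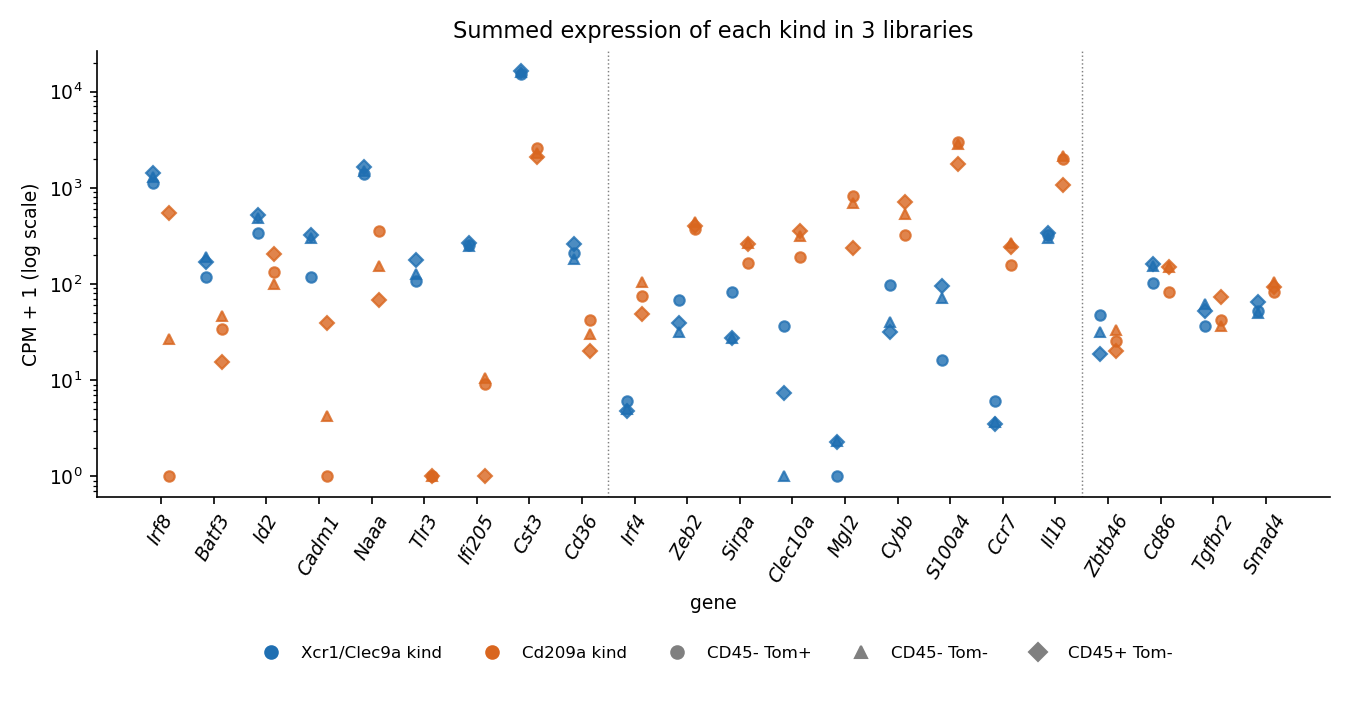
Level of each gene (CPM plus 1, log axis) in the summed cells of the Xcr1/Clec9a kind (blue) and the Cd209a kind (orange) in 3 libraries, shown by the shape of the point, without CD45+ Tom+, which held 7 cells. The first group of genes is higher in the Xcr1/Clec9a kind, the second is higher in the Cd209a kind, and for Zbtb46, Cd86, Tgfbr2 and Smad4 the colours lie close together.

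The most abundant of the called genes was Cst3, which encodes the secreted protease inhibitor cystatin C. It stood at 15325, 15870, 18741 and 16355 CPM in the Xcr1/Clec9a kind and at 2609, 2308, 3072 and 2100 in the Cd209a kind. The ratio was -2.78 in CD45- Tom- (interval -2.89 to -2.67) and -2.96 in CD45+ Tom- (-3.10 to -2.82), and the lowest Xcr1/Clec9a cell still held 44 UMIs. Cd36, a scavenger receptor that takes up fatty acids and cell debris, was at 210, 182, 302 and 258 CPM against 41.1, 29.0, 0 and 19.2. Cd36 and Trem2 were the called lipid genes on the side of the Xcr1/Clec9a kind, and 69.9% of the Trem2 UMIs came from 1 cell. Mycl, a Myc family factor of dendritic cells, had a ratio of -2.91 and Ahr, the aryl hydrocarbon receptor, -2.18. Ahr was at 277, 341, 345 and 317 CPM in the Xcr1/Clec9a kind, among the steadiest of these genes.

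Genes outside the lists with the most negative ratios at a mean of 50 CPM or more were led by Hmox1, but a single cell held 91.9% of its UMIs, and 1 cell held 78.1% of those of Clu. The others were spread over cells. Hepacam2 had a ratio of -5.06, followed by the acyltransferase gene Agpat3 at -4.98, Rtl8a at -4.54, the glutaminyl cyclase gene Qpct at -4.11 and the actin regulator Evl at -3.99. P2ry14, a receptor for UDP-glucose, and the tetraspanin Cd81 both had -3.87, ahead of Pik3cb at -3.67 and Phf11a at -3.45.

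The cDC2 genes were higher in the Cd209a kind, though less uniformly. Of 14 that reached 20 CPM, 10 were called higher there and none in the Xcr1/Clec9a kind, with a median ratio of 3.12. Mgl2 (chr11:70130329-70137550) and Clec10a (chr11:70156197-70170834), neighbouring lectin genes for galactose-type sugars, led the list. Mgl2 was at 823, 693, 687 and 236 CPM in the Cd209a kind and at 0, 1.32, 0 and 1.28 in the Xcr1/Clec9a kind. Clec10a was at 189, 316, 633 and 356 CPM against 35.9, 0, 0 and 6.38. Within the kind, Clec10a was found in 35 of 40 cells but Mgl2 in only 23, with a median of 4 and a highest value of 45 UMIs. Irf4 was at 74.1, 103, 54.2 and 48.1 CPM against 5.12, 3.97, 21.6 and 3.83. Sirpa, the don't-eat-me signal receptor, was at 165, 268, 181 and 260 CPM against 82.0, 26.5, 0 and 26.8. Zeb2, a repressor that holds back the cDC1 fate, was at 370, 435, 651 and 404 CPM against 66.6, 30.5, 0 and 38.3, and Itgam (CD11b) had a ratio of 2.96. The levels of Irf4, Sirpa and Zeb2 did not overlap between the kinds. Clec12a and Notch2, also on the cDC2 list, did not follow it: their ratios were -0.77 and -0.76. Ccr2, the receptor by which monocytes and their progeny leave the marrow, was at 282, 326, 539 and 456 CPM in the Xcr1/Clec9a kind and at 560, 555, 1392 and 798 in the Cd209a kind, a ratio of 0.79.

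**Figure D4:**
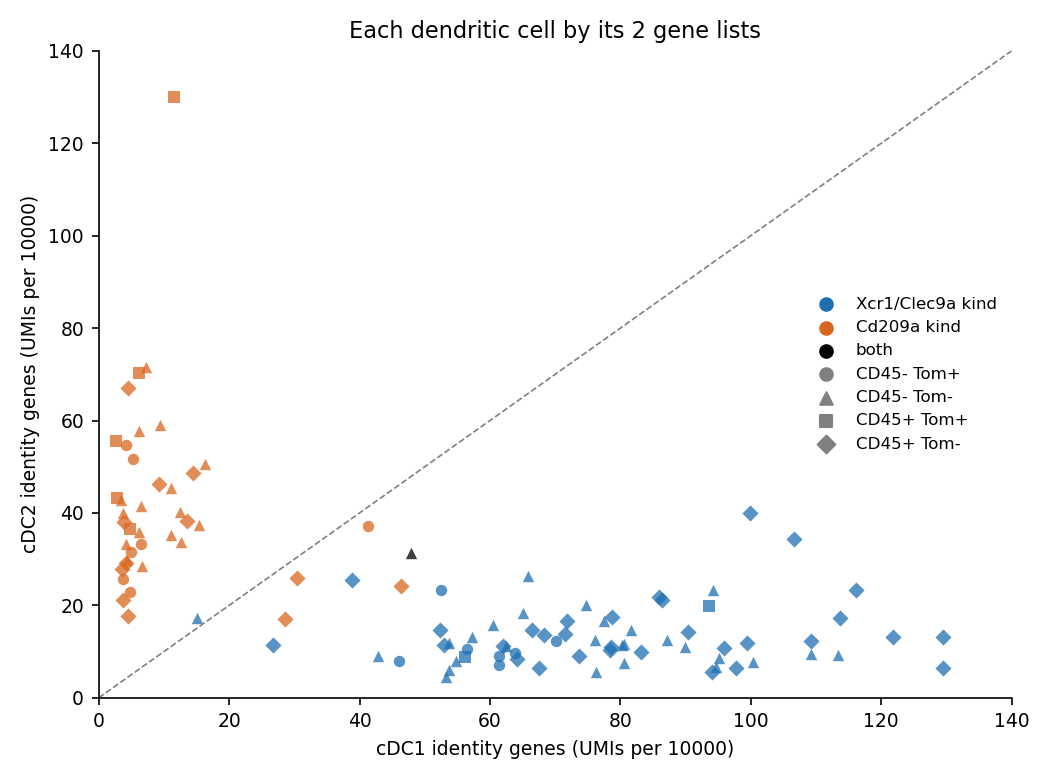
Each point is 1 cell, placed by its UMIs of the cDC1 genes (x axis) and of the cDC2 genes (y axis) per 10000 UMIs, neither list holding the genes of the rule, with the kind as colour, the library as shape and equality as the dashed line. Of the Xcr1/Clec9a cells 66 of 67 lay on the cDC1 side of the line, of the Cd209a cells 36 of 40 lay on the cDC2 side, and the 1 cell of both lies at 47.9 and 31.3, on the cDC1 side.

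The lists were then counted in single cells. In them cDC1 genes outweighed cDC2 genes in 66 of 67 Xcr1/Clec9a cells and in 4 of 40 Cd209a cells. The median Xcr1/Clec9a cell held 76.3 cDC1 UMIs per 10000 (range 15.0 to 130) against 6.23 (2.65 to 46.4) in the Cd209a kind, and 11.6 cDC2 UMIs (4.44 to 39.9) against 37.7 (17.0 to 130). Of the 4 exceptions, 1 was in CD45- Tom+ and 3 in CD45+ Tom-. Siglech, Ccr9 and Cox6a2, markers of plasmacytoid dendritic cells, came to at least 10 UMIs in 3 Cd209a cells, all in CD45+ Tom-, and 2 of these, with 137 and 171 plasmacytoid UMIs per 10000, were among the exceptions. The same 2 cells were among the 4 that held 3 UMIs of Cd209a, just inside the limit. The other cells at 3 UMIs had 4.78 and 6.62 plasmacytoid UMIs per 10000, and the 33 cells above 3 had a median of 3.89. Tcf4, the master factor of plasmacytoid cells, was at 255, 187, 145 and 812 CPM in the Cd209a kind and Siglech at 0, 0, 0 and 332. Of 9 plasmacytoid genes at 20 CPM, 4 were called higher in the Cd209a kind. Without the members holding UMIs of another cell type, Tcf4 kept a ratio of 2.60 and Irf8 moved from -3.47 to -4.57. The 1 cell that met both limits, in CD45- Tom-, held 4 UMIs of Clec9a, 4 of Cd209a, 50 of Irf8 and 28 of Siglech.

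Markers of other cell types were sought in the members. C1q genes of macrophages reached 30 UMIs in 3 Xcr1/Clec9a cells and 1 Cd209a cell, collagen and Dcn transcripts of stromal cells in 3 Xcr1/Clec9a cells and no Cd209a cell, and mast cell proteases in 1 Xcr1/Clec9a cell, where they came to 493 UMIs. In all, 7 cells of the Xcr1/Clec9a kind and 4 of the Cd209a kind carried such counts, the plasmacytoid ones included. Over the macrophage list of 14 genes, 13 were detected in the Xcr1/Clec9a kind and all 14 in the Cd209a kind, with summed levels of 323 to 2854 and of 625 to 1175 CPM over the libraries. Over the stromal list of 12 genes, 11 were detected in each kind, with summed levels of 41.0 to 1687 and of 123 to 327 CPM. Dcn and Col1a2, called higher in the Xcr1/Clec9a kind at -3.10 and -2.46, stood at 0.045 and -0.091 without the cells that held other types' UMIs. The cells also carried the calls of Igfbp7, Igfbp4, Trem2 and Clu, whose ratios without them were 0.041, 0.67, 1.26 and 1.73. Of 5 monocyte genes at 20 CPM, 3 were called higher in the Cd209a kind and 4 had a positive ratio. Ly6c2, the monocyte surface marker, was at 49.4, 3.22, 18.1 and 260 CPM there, so most of it lay in CD45+ Tom-. Its ratio was 0.55 in CD45- Tom- (interval -5.60 to 4.55) and 7.10 in CD45+ Tom-. B cell genes stayed between 0 and 31.8 CPM for all 8 genes of the list together in either kind.

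Class I and cross-presentation genes tended toward the Xcr1/Clec9a kind by small amounts. Among 21 class I and cross-presentation genes at 20 CPM, 6 had a positive ratio and the median was -0.44, with Wdfy4 and Cybb called, 1 in each direction. Calls over all genes tested made up 3.09% toward the Cd209a kind and 2.75% toward the Xcr1/Clec9a kind. The immunoproteasome subunit gene Psmb9 was at 420, 492, 367 and 509 CPM in the Xcr1/Clec9a kind and at 173, 168, 90.4 and 173 in the Cd209a kind, with a ratio of -1.54 in each Tom- library. Tap2, a subunit of the peptide transporter into the endoplasmic reticulum, was at 190, 142, 129 and 197 CPM against 41.1, 58.0, 108 and 48.1, and the proteasome activator genes Psme1 and Psme2 had ratios of -1.23 and -0.97. These genes had the same direction but none reached 4-fold. The class I chains went the other way, since H2-K1, H2-D1 and B2m had ratios of 0.44, 0.42 and 0.35. Cybb, the catalytic subunit of the NADPH oxidase, stood apart from the list, at 97.3, 39.7, 64.7 and 30.6 CPM in the Xcr1/Clec9a kind and at 321, 529, 470 and 707 in the Cd209a kind, and it was found in 40 of 40 Cd209a cells.

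Class II genes differed little. Of 19 class II processing genes at 20 CPM, Cst3 was the 1 called. Cd74, the invariant chain, was at 13680, 12738, 15290 and 14426 CPM in the Xcr1/Clec9a kind and at 21818, 17738, 17079 and 12804 in the Cd209a kind. Its ratio was 0.48 in CD45- Tom- and -0.17 in CD45+ Tom-, with intervals that excluded 0 on opposite sides, so the libraries gave no common direction, and H2-Aa and H2-Eb1 behaved in the same way. The cathepsins Ctsh and Ctss, which cut antigen and the invariant chain, had ratios of 1.95 and 1.46 with the same direction in both libraries. Ctsh was at 164, 209, 151 and 148 CPM against 617, 600, 759 and 769.

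C-type lectins and sensors of microbes were unevenly split. Of 10 lectin genes at 20 CPM, 8 were called higher in the Cd209a kind and none in the Xcr1/Clec9a kind, with a median ratio of 3.17, the genes of the rule left out. Besides Mgl2 and Clec10a these were Clec4a1, Clec4a2, Clec4a3, Clec4b1, Clec4n and Mrc1. Mrc1 was at 16.5, 187, 470 and 62.5 CPM in the Cd209a kind and at 113, 2.65, 0 and 24.3 in the Xcr1/Clec9a kind. Its order was thus turned in CD45- Tom+. For the other genes of this paragraph, the Cd209a kind is given first. Clec4a3 was at 132, 103, 271 and 48.1 CPM against 0, 9.27, 0 and 1.28, whereas 70.3% of the Clec4n UMIs of the Cd209a kind came from 1 cell. Clec4 genes are close paralogs in a cluster, and reads that fit several of them could not be told apart. Among 7 sensors, Tlr2, the receptor for bacterial lipoproteins, was called higher in the Cd209a kind (82.3, 83.8, 181 and 86.5 CPM against 10.2, 3.97, 21.6 and 14.0) and Tlr3 in the Xcr1/Clec9a kind. Unc93b1, which carries endosomal Toll-like receptors, had a ratio of -0.34, and the adaptor Myd88 one of -0.14.

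Of 18 chemokine receptor and adhesion genes, 6 were called higher there and 2, Cxcr3 and Itgae, in the Xcr1/Clec9a kind. Ccr7 (chr11:99144196-99155077), the receptor that guides dendritic cells to lymph nodes, was at 156, 268, 199 and 240 CPM in the Cd209a kind and at 5.12, 2.65, 0 and 2.55 in the Xcr1/Clec9a kind. It was found in 16 of 40 Cd209a cells, with a highest value of 35 UMIs, so the level came from a part of the cells. Mgl2 and Ccr7 were both present in 10 cells, Mgl2 alone in 13, Ccr7 alone in 6 and neither in 11. Ccr1 was at 0, 106, 36.1 and 52.9 CPM in the Cd209a kind, with a ratio of 5.73. Cx3cr1, the fractalkine receptor, had a ratio of 5.71. Of 9 genes of mature, migrating dendritic cells at 20 CPM, 5 were called higher in the Cd209a kind and none in the Xcr1/Clec9a kind, with a median ratio of 2.22. These were Ccr7, Il4i1, Ccl22, Ccl17 and Marcksl1. Cd63 had a negative ratio of -1.34. Fscn1, Socs2 and Cacnb3 of the same list were each at 2.88 CPM in the Cd209a kind over all libraries. In the Xcr1/Clec9a kind they were at 5.06, 12.4 and 9.55 CPM. The list had a median of 11.5 UMIs a cell in the Cd209a kind, but 1 cell held 209. Il4i1, an amino acid oxidase, had a ratio of 5.59 and Ccl22, a chemokine for regulatory T cells, one of 4.72, but 1 cell gave 50.0% of the Ccl22 UMIs.

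Of 15 chemokine and cytokine genes at 20 CPM, 5 were called higher in the Cd209a kind and 3 in the Xcr1/Clec9a kind. Il1b was the most abundant of them and stood at 2008, 2154, 235 and 1067 CPM in the Cd209a kind against 323, 301, 21.6 and 335 in the Xcr1/Clec9a kind. It was present in 33 of 40 Cd209a cells with a median of 9 UMIs and in 46 of 67 Xcr1/Clec9a cells with a median of 2. Ccl9, a chemokine of myeloid cells, was at 790, 445, 705 and 211 CPM in the Cd209a kind against 51.2, 25.2, 0 and 12.8 in the Xcr1/Clec9a kind. Osm, an Il6 family cytokine, had a ratio of 4.74. Ccl2, Ccl7 and Cxcl9 were the 3 called higher in the Xcr1/Clec9a kind, at -2.02, -3.03 and -2.87, with 60.6% of the Cxcl9 UMIs from 1 cell. Ccl2 stood at -1.88, under 4-fold, without the cells that held other types' UMIs. Nfkbia, the feedback inhibitor of NF-kB, was at 1737, 1380, 2241 and 1168 CPM in the Cd209a kind against 210, 220, 173 and 317. Nfkbia also belongs to the list of genes that tissue dissociation induces, of which 16 reached 20 CPM, 10 had a positive ratio and 1 was called in each direction, with a median of 0.30. Rel and Relb, NF-kB subunits, had ratios of 1.57 and 1.96 and stayed under 4-fold.

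Of 12 co-stimulation and checkpoint genes at 20 CPM, 3 (Sirpa, Cd80 and Tnfsf9) were called higher in the Cd209a kind and 1, Btla, in the Xcr1/Clec9a kind. Among all genes tested, 3.09% and 2.75% were called in these directions. Sirpa is also on the cDC2 list and Btla on the cDC1 list. Cd86 was at 102, 154, 173 and 160 CPM in the Xcr1/Clec9a kind against 82.3, 148, 217 and 149 in the Cd209a kind. Its ratio was -0.06, with intervals in the Tom- libraries from -0.58 to 0.45 and from -0.72 to 0.48. Tnfsf9, the ligand of 4-1BB, was at 15.4, 2.65, 0 and 8.94 CPM in the Xcr1/Clec9a kind against 222, 116, 199 and 62.5 in the Cd209a kind. Havcr2 (TIM-3) was at 76.9, 132, 151 and 144 CPM in the Xcr1/Clec9a kind against 74.1, 67.7, 54.2 and 33.6 in the Cd209a kind. Its ratio of -1.47 was not called.

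After Cst3 the called gene with the highest mean level was S100a4 (chr3:90603771-90606045), a calcium-binding protein of motile cells. It was at 2987, 2837, 2657 and 1778 CPM there and at 15.4, 70.2, 21.6 and 94.5 in the Xcr1/Clec9a kind, a ratio of 4.78, and 38 of 40 Cd209a cells held it with a median of 43.5 UMIs. Outside the lists, Cd7 and Klra17 had no UMI in the Xcr1/Clec9a kind of either Tom- library and were at least 93.0-fold and 68.3-fold higher in the Cd209a kind. Cd7, a lymphoid surface protein, was at 90.5, 132, 90.4 and 255 CPM and found in 19 of 40 cells. Klra17, of the Ly49 receptor family whose members share sequence, was at 82.3, 135, 72.3 and 130 CPM and found in 72.5% of the cells. Ptgs2 (cyclo-oxygenase 2), which makes prostaglandins, was at 395, 451, 416 and 125 CPM in the Cd209a kind against 5.12, 7.95, 0 and 5.11 in the Xcr1/Clec9a kind. Tnip3, an inhibitor of NF-kB signalling, was at 864, 464, 1030 and 461 CPM against 61.5, 26.5, 21.6 and 26.8, and Dab2, an endocytic adaptor, at 543, 561, 795 and 726 against 46.1, 37.1, 0 and 85.5. Ms4a4c had a ratio of 4.79, Ifitm1 4.23, Wnt11 3.90, Cyp4f16 3.77, Ctnnd2 3.64, the Src family kinase Fgr 3.55 and the urokinase receptor Plaur 3.49.

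Of 40 transcription factor genes, 6 were called in each direction. Beside Irf8, Batf3, Ahr and Mycl, Irf7 and Maf were called higher in the Xcr1/Clec9a kind, at -2.25 and -3.47. Beside Irf4, Zeb2 and Tcf4, the Cd209a kind was higher in Runx2, Bcl11a and Stat5a, at 3.74, 2.10 and 2.14. Without the cells that held other types' UMIs, Maf, Irf7 and Bcl11a fell under 4-fold, at -0.47, -1.82 and 1.68. Zbtb46 is a factor of conventional dendritic cells of both types. It was at 46.1, 30.5, 43.1 and 17.9 CPM in the Xcr1/Clec9a kind against 24.7, 32.2, 36.1 and 19.2 in the Cd209a kind. The intervals of Zbtb46 in the Tom- libraries spanned 0. Spi1 and Klf4 had ratios of 0.57 and 0.49.

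Irf8 and Irf4 bind DNA with partners, at composite sites with Ets factors (EICE, searched as GGAA and GAAA with 2 bases of any kind between them) and at interferon response elements (ISRE, GAAA and GAAA with 2 bases between), and Zeb2 binds E-boxes (CAGGTG). These letters were searched on both strands in the window from 250 bases before to 50 after each RefSeq gene start (GRCm38.p6), and EICE and ISRE can overlap. Promoters were found for 128 of the 165 genes and 106 of the 147. EICE was present in 6 of the 128 (4.69%) and in 1 of the 106 (0.943%), beside 2.57% of the promoters of all tested genes and 2.79% of 27025 promoters. ISRE was present in 3.13% and in 8 of the 106 (7.55%), beside 3.48% and 3.49%. The E-box was present in 21.9% and 19.8%, beside 15.3% and 20.03%. These are small numbers and matches are descriptions, not binding. The promoters of Cd209a and Xcr1, which define the kinds, and of Cybb and Ifi205, a called gene of each kind with matches, are shown 5′ to 3′ on the strand of the gene, with the EICE and ISRE matches in capitals. Xcr1 (chr9:123861980-123862279, minus strand) held no match, Cd209a (chr8:3748935-3749234, minus strand) held 1 EICE, Ifi205 (chr1:174031706-174032005, minus strand) 2 ISRE, and Cybb (chrX:9469275-9469574, minus strand) 1 EICE and 3 ISRE.
Xcr1: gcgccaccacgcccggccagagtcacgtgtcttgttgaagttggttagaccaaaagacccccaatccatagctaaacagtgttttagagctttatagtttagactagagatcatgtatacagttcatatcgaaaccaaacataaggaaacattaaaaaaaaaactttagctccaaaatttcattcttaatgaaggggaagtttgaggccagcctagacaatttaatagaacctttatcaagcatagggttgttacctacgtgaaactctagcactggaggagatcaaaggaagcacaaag
Cd209a: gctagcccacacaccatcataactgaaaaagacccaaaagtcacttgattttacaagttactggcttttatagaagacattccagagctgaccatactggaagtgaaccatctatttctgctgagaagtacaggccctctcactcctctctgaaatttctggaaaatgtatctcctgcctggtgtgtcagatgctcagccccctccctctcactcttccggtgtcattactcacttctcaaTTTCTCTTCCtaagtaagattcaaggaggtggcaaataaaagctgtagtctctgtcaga
Cybb: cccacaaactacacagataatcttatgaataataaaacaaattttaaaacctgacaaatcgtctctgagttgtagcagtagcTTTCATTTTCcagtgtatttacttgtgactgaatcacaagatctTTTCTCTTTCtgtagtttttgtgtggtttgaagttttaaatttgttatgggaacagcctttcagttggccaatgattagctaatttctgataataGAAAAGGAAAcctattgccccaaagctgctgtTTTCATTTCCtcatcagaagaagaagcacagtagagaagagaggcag
Ifi205: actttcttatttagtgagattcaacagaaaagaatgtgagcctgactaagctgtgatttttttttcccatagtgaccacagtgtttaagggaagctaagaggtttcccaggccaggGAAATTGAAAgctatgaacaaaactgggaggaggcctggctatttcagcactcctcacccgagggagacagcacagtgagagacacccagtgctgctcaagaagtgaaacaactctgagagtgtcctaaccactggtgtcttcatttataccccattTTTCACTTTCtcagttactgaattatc
The matched motif does not lie in the same place in these genes. The gene start lies near base 250 of the window. In Cd209a the EICE begins at base 242 and in Cybb at base 254. The ISRE matches begin at bases 117 and 274 in Ifi205 and at bases 83, 127 and 222 in Cybb. Ifi205, an interferon-inducible DNA-binding protein, was at 256, 245, 173 and 267 CPM in the Xcr1/Clec9a kind and at 8.23, 9.67, 0 and 0 in the Cd209a kind. The other genes with an ISRE in the Xcr1/Clec9a kind were Aif1, Cdca3, Fcrla, Ifi211, Phf11a, Serpinb6a and Slamf8, and those with an EICE in the Cd209a kind beside Cybb were Bach2, Clec4a1, Ifitm6, Pou2f2 and Samsn1.

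The TGF-beta pathway, growth factor receptors and lipid genes bear on fat tissue. Of 13 TGF-beta pathway genes at 20 CPM, none was called, and the median ratio was 0.10. Tgfb1, the ligand, was at 82.0, 71.5, 21.6 and 123 CPM in the Xcr1/Clec9a kind and at 206, 190, 72.3 and 216 in the Cd209a kind, a ratio of 1.12. The inhibitor Smad7 had a ratio of 1.75 and the receptor gene Acvrl1 one of -1.95. Of 21 growth factor receptors, Csf1r, Lifr and Il1r2 were called higher in the Cd209a kind, beside 3.09% of all genes tested. Csf1r, the receptor that macrophages depend on, was at 41.1, 119, 108 and 72.1 CPM in the Cd209a kind against 76.9, 10.6, 0 and 24.3 in the Xcr1/Clec9a kind. In CD45- Tom+ the order was thus turned. Kit, the stem cell factor receptor, was at 66.6, 96.7, 280 and 105 CPM in the Xcr1/Clec9a kind and at 8.23, 106, 18.1 and 9.61 in the Cd209a kind, where 43.2% of its UMIs came from 1 cell.

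Transcripts of dividing cells were found in both kinds. Mki67, Top2a, Birc5 and Ube2c came to at least 9 UMIs together in 19 of 67 Xcr1/Clec9a cells (28.4%, interval 18.0 to 40.7%) and in 4 of 40 Cd209a cells (10.0%, 2.79 to 23.7%). The intervals overlapped, and the shares were not corrected for the greater depth of the Xcr1/Clec9a kind. By library these were 2, 9, 1 and 7 cells against 0, 3, 0 and 1. Of 21 cell cycle genes at 20 CPM, 20 had a negative ratio, with a median of -0.76. From this list 1 gene was called higher in the Xcr1/Clec9a kind, beside 2.75% of all genes tested. Top2a was at 184, 217, 280 and 143 CPM in the Xcr1/Clec9a kind against 0, 126, 0 and 57.7 in the Cd209a kind. Mki67 had opposite directions in the Tom- libraries. Thinned to 2000 UMIs a cell, Top2a was found in 17.9% of Xcr1/Clec9a cells and 7.5% of Cd209a cells, beside 0.25% of stromal cells. Unthinned, the shares were 38.8%, 20% and 6.69%, at median depths of 25490, 17990 and 24755 UMIs.

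Cdkn2a, the p16 gene itself, had no UMI in any member. A floor of 3 cells with a UMI is a share of 4.48% of the 67 Xcr1/Clec9a cells and 7.5% of the 40 Cd209a cells. The exact upper limits for a count of 0 are higher, at 5.36% and 8.81%. Cdkn1a (p21) was at 66.6, 60.9, 0 and 67.7 CPM in the Xcr1/Clec9a kind and at 346, 387, 253 and 317 in the Cd209a kind, a ratio of 2.44. Of 19 senescence and arrest genes, Cdkn1a was called higher in the Cd209a kind, and Igfbp4 and Igfbp7, for which single cells held 50.5% and 41.7% of the UMIs, in the other. The shares called among all genes tested were 3.09% and 2.75%. The Tom+ libraries held 7 and 5 cells of the Cd209a kind and 7 and 2 of the Xcr1/Clec9a kind. Cdkn1a was therefore not compared between Tom+ and Tom- libraries.

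tdTomato was higher in members of the Tom+ libraries but stayed far below the level of all kept barcodes there. It stood at 101 CPM in CD45- Tom+ (interval 69.1 to 143, 32 UMIs), 38.1 in CD45- Tom-, 128 in CD45+ Tom+ (13 UMIs) and 29.3 in CD45+ Tom-. All kept barcodes had 712, 16.2, 722 and 19.6 CPM in the same order, and macrophages (C1qa of at least 5 UMIs, Adgre1 of at least 1 and no Flt3) 702, 17.9, 674 and 18.9. The cells of neither kind, which passed every limit but that on Xcr1, Clec9a and Cd209a, had 515, 31.2, 1058 and 24.2 CPM. In the Tom+ libraries these were 10 and 2 cells with 107 and 14 UMIs. Single cells held 44 and 12 of those UMIs. The Tom+ members were 2.65-fold above the Tom- members in the CD45- pair (log2 1.41, interval 0.69 to 2.11) and 4.37-fold in the CD45+ pair (log2 2.13, interval 1.06 to 3.12). By kind, the log2 ratios were 0.83 (-0.35 to 1.91) and 2.43 (0.96 to 3.70) for the Xcr1/Clec9a kind and 1.66 (0.66 to 2.67) and 1.69 (-0.16 to 3.49) for the Cd209a kind, so 1 interval of each kind spanned 0. Per cell, members of the Tom+ libraries had medians of 2.5 and 1 UMIs and highest values of 6 and 7, whereas all kept barcodes of those libraries had a median of 11. Members held 14.2% and 17.7% of the tdTomato level of all kept barcodes in CD45- Tom+ and CD45+ Tom+. Jchain, the antibody joining chain made by plasma cells, stood in members at 10.6% and 19.7% of the level of all kept barcodes in the same libraries, at 1364 and 2724 CPM against 78.1 and 98.9 in the members of the Tom- libraries. The part of free RNA in the tdTomato of members was not tested.

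**Figure D5:**
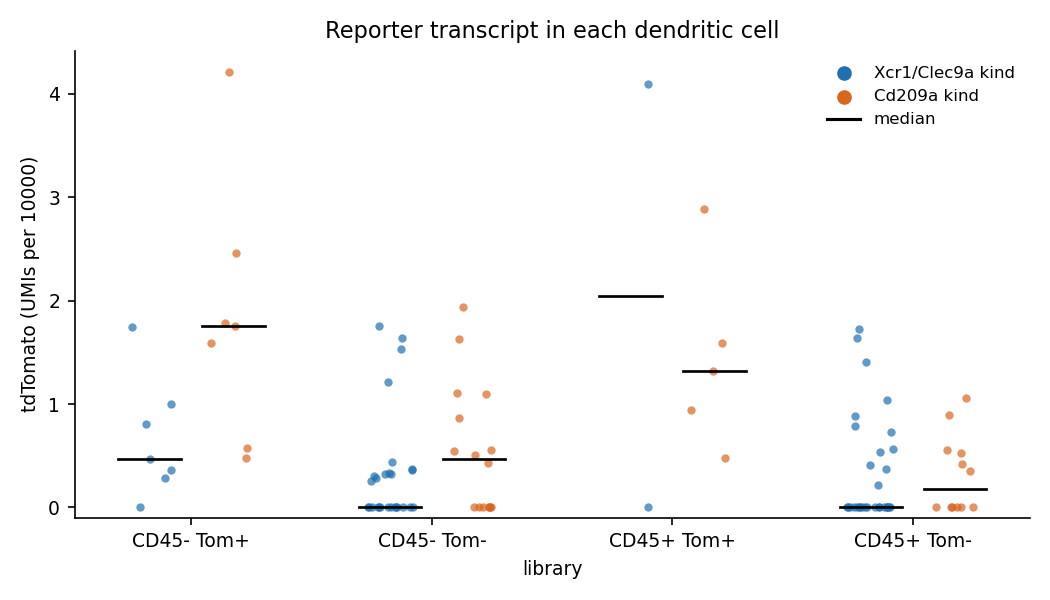
tdTomato UMIs per 10000 UMIs (y axis) in each cell of the Xcr1/Clec9a kind (blue) and the Cd209a kind (orange) by library, with the median as a black line. The highest cell of the CD45- Tom+ library had 4.20 and that of the CD45+ Tom+ library 4.10, and the highest in the Tom- libraries had 1.94 and 1.73.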

How the data were processed

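Single cells of the adipose stromal vascular fraction were sequenced with 10x Genomics 3′ chemistry in 4 libraries. The authors made the deposited tables with Cell Ranger 3.0.2 on the mm10 genome, and their values are raw UMI counts per gene and barcode, with no normalization. Of 31054 features, 30934 were found in GENCODE vM21, from which gene coordinates were read.

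Counts were analysed in python 3.11.15 with numpy 2.4.6, scipy 1.17.1, pandas 2.3.3 and scanpy 1.11.5, and the ratio code was tested on simulated data. Members, gene lists and limits were chosen with earlier results of these data known. UMIs were summed per kind and library. The ratio required libraries with 20 cells of both kinds as first planned, which 0 libraries held, so 10 cells were required. Planned gene comparisons between Tom+ and Tom- cells were not made for the same reason. No test was made, since the cells of each kind were chosen by their own counts and each gate had 1 library, and no p-value is given. Genes named are those of 29 lists and, outside them, the 12 with the highest and the 12 with the lowest ratio at 50 CPM or more with 1 direction in both libraries. Rule genes and mitochondrial, ribosomal, immunoglobulin, receptor and predicted genes were left out of the latter, and a few genes that the rule names are not reported here. Doublets were kept. As alternatives, barcodes scored highest by Scrublet were left out, which marked 9 members, and filters, limits, scale, depth and libraries were varied.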

Additional observations from a re-analysis of the deposited data

Results flagged for a closer look

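Of the cells that passed every limit but that on Xcr1, Clec9a and Cd209a, 58 belonged to neither kind and took no part in the comparisons. In them Ccr7 stood at 1001 CPM (interval 941 to 1064) and was found in 34 cells, against 2.81 CPM in the Xcr1/Clec9a kind and 235 in the Cd209a kind. Fscn1, the actin bundler of mature dendritic cells, stood at 362 CPM in 23 of these cells, against 5.06 and 2.88.

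For some listed genes at 100 CPM or more, the ratio of the kinds had opposite directions in CD45- Tom- and CD45+ Tom-, with each counting interval on its own side of 0. The intervals do not cover the spread between cells, and the difference between the libraries was not tested. Among class II genes, H2-Aa was at 0.50 and -0.23 (a difference of 0.73), H2-Eb1 at 0.48 and -0.13 (0.61) and Cd74 at 0.48 and -0.17 (0.65). Ctsl, a cathepsin, was at -1.14 and 1.34 (-2.48), and Plac8 at -0.51 and 2.12 (-2.63). The mean ratio of Plac8 went from 0.80 to -0.24 without the cells that held other types' UMIs. The survival genes Bcl2a1b and Bcl2a1d, close paralogs whose reads may not be told apart, were at 0.57 and -2.47 (3.04) and at 0.40 and -1.01 (1.41). Mki67, a proliferation gene, was at 0.42 and -0.77 (1.19). In the Cd209a kind of CD45- Tom-, single cells held 38 and 31 Mki67 UMIs, and the next highest held 9. The early response genes Btg2, Jund and Klf6 were at -0.48 and 0.37 (-0.85), 0.65 and -0.31 (0.96), and 0.43 and -0.34 (0.77).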

How the results depend on the processing

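The shares of all dendritic cells among kept barcodes and their tdTomato levels moved by less than their counting intervals under every alternative tried for them. This does not hold for the split between the kinds. In CD45- Tom-, 27 Xcr1/Clec9a and 16 Cd209a cells became 7 and 11 without barcodes found in more than 1 library. The share of the Xcr1/Clec9a kind there thus fell below its interval of 46.7 to 77.0%. The 165 genes called higher in the Cd209a kind became 340 without barcodes found in more than 1 library, when only CD45+ Tom- kept enough cells (20 and 11), and 222 when both Tom- libraries were used all the same. They became 402 with each cell thinned to 2000 UMIs, when 79.3% of calls were higher in the Cd209a kind against 52.9%, and the cause was not tested. With a minimum of 5 CPM in place of 20, more genes were tested and 349 and 381 were called. The 147 genes called higher in the Xcr1/Clec9a kind became 91 without members holding UMIs of another cell type, where only CD45- Tom- kept enough cells, and 120 with both libraries used. Leaving out a Tom- library gave 181 to 249 and 161 to 168 calls, the 249 without CD45- Tom-. Without marked doublets, 204 and 128 were called. Similar totals did not mean the same genes. Of the 165 and the 147, 156 and 95 were called again without marked doublets, and 114 and 42 after thinning. Without CD45- Tom- 126 and 97 were called again, and without CD45+ Tom- 126 and 105. Without barcodes found in more than 1 library they were 133 and 82 with both libraries used. With H2-Ab1 of at least 20 UMIs they were 161 and 141. Of the 100 called genes among 321 that were listed or named, 90 kept their sign in all 19 alternatives. With no UMI of Gpnmb, Cd79a or Cd3e allowed, the ratios of Igfbp7, Dcn, Igfbp4, Ly6c2, Trem2 and Clu turned to 0.87, 0.27, 0.074, -1.06, 1.26 and 2.84, and with both libraries used those of Igfbp7, Igfbp4 and Clu to 0.41, 0.21 and 1.76, while Ly6c2 stood at 2.88. The former used CD45- Tom- alone, so 2 choices differed at once. Without shared barcodes Dcn, Aldh1a2 and Hmox1 turned to 0.073, 0.40 and 1.14, and with both libraries Maf and Igfbp4 to 0.23 and 0.39. Without members holding other types' UMIs, Igfbp7, Col1a2, Dcn, Maf, Igfbp4, Trem2 and Clu turned to 0.81, 0.056, 0.032, 0.53, 0.46, 2.60 and 2.60, and with both libraries Igfbp7, Dcn, Igfbp4, Trem2 and Clu to 0.041, 0.045, 0.67, 1.26 and 1.73. The removal of these members, the use of both libraries and the limit of 5 cells were chosen after seeing the data. Gene comparisons of Tom+ with Tom- cells were not run, since the Tom+ libraries held 9 and 12 cells of the kinds. No paired analysis was possible because the result comes from no test, the kinds having been chosen by counts of the same cells, and ratios were taken within each library.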

Other observations

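The 58 cells of neither kind held further genes of mature, migrating dendritic cells. Il4i1 stood at 239 CPM in them, against 2.25 in the Xcr1/Clec9a kind and 144 in the Cd209a kind, and Relb at 269 against 27.5 and 90.6. Ccl17 and Ccl22, chemokines for Ccr4, were lower in them than in the Cd209a kind, at 13.5 against 93.5 CPM and at 135 against 270.5. However, 1 Cd209a cell alone held 94 UMIs of Ccl22, whereas the 58 cells together held 140. Ccl22 was found in 12 of the 40 Cd209a cells and in 20 of the 58. The difference in Ccl22 thus leans on that cell and was not examined without it. In the 49 cells with Xcr1, Clec9a and Cd209a all at 0, the median level of the mature list was 29.5 UMIs per 10000, against 2.18 and 6.48 in the kinds. C1qa, a macrophage gene, stood at 211 CPM in the 58 cells.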
